A study of Mus musculus with 6 samples.

Results

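The genes described are 8 keratin genes and Trp63, 9 of the 17189 genes in the deposited tables. They were chosen by name: Krt7, Krt8, Krt18 and Krt19 as simple epithelial keratins, Krt5, Krt14 and Krt17 as keratins of basal or stressed epithelium, and Krt20 and Trp63. The choice was made with the difference between the genotypes in view, so that difference is given for them as a description and not as a test. RNA was sequenced from ureteric bud (UB) lineage cells, the branching epithelium that forms the collecting ducts, sorted by fluorescence from E16.5 mouse embryos. The 3 conditional knockout (cKO) libraries came from embryos with the Hoxb7Cre-GFP transgene and both alleles of Ash2l floxed (Ash2l F/F). The 3 control libraries came from embryos with the same transgene and a single floxed allele (Ash2l F/+). No animal was treated, and every library therefore carried Cre, GFP and at least 1 floxed allele. The transgene is driven by Hoxb7, which is active in the UB lineage. The sources used here do not name the sort gate, the floxed exons or whether a library is 1 embryo or a pool, so p-values measure only the spread between these libraries.

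Keratins are the intermediate filament proteins of epithelia. A filament is built from pairs of an acidic type I keratin, such as KRT14, KRT17, KRT18, KRT19 or KRT20, and a basic type II keratin, such as KRT5, KRT7 or KRT8. KRT8 and KRT18 are the pair of simple epithelia, including the kidney ducts, KRT5 and KRT14 are the pair of basal cells of stratified epithelia, and KRT17 is induced in wounded or stressed epithelium. Trp63 encodes p63, a transcription factor of the p53 family that maintains basal cells of stratified epithelia and the urothelium.

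The libraries held 9620235 to 10538314 counts. Ash2l, the targeted gene, had 46.1, 29.7 and 21.4 CPM (counts scaled to library size) in cKO replicates 1, 2 and 3, against 190, 176 and 159 CPM in control replicates 1, 2 and 3. It fell by 2.43 on the log2 scale (SE 0.284, edgeR adjusted p = 0.00786), and was called whichever library was left out (highest adjusted p 0.0493, without control replicate 1). The library of cKO replicate 3 stood apart: it listed 0 for 1453 of 11738 genes (12.4%) that had more than 10 counts in all the others, and the same check found at most 3 such genes elsewhere. Counts of calls are therefore given with that library and, where any were made, without it. Of all tested genes, 3.52% rose and 3.59% fell in the 6 libraries, and 13.7% rose and 14.9% fell without cKO replicate 3. All 16 listed markers of the ureteric epithelium had counts in every library. Their summed level was 6193 to 6287 CPM in cKO and 9130 to 10162 CPM in controls, and 6 of the 16 fell and none rose (11 and none without cKO replicate 3). By edgeR 10 were lower and none higher at an unadjusted p under 0.05, and DESeq2 called 8 lower and none higher at its adjusted p. Hoxb7 itself, the source of the transgene's promoter, fell by 1.30 (SE 0.151, adjusted p = 0.00784; 0.0529 without control replicate 3). In bulk RNA, fewer cells of a type and less RNA per cell cannot be told apart.

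Krt17 was the fifth most abundant of the 9 genes in cKO cells and near 0 in controls, while the 4 simple keratins stayed the most abundant in both genotypes. Krt18 was lower in every cKO library than in any control, and Krt8 had the lower mean in cKO. Krt7 and Krt19 had overlapping values. Trp63 and Krt20 were higher in cKO replicates 1 and 2 than in any control, but not in cKO replicate 3. Krt5 and Krt14, the pair that defines basal cells, had at most 5 and 94 counts in any cKO library and at most 12 and 8 in any control. The pair was not high together in any library, but Krt14 alone had 38 and 94 counts in cKO replicates 2 and 3. Other genes of basal cells are given below, and no verdict on a basal pattern is drawn.

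**Figure D1:**
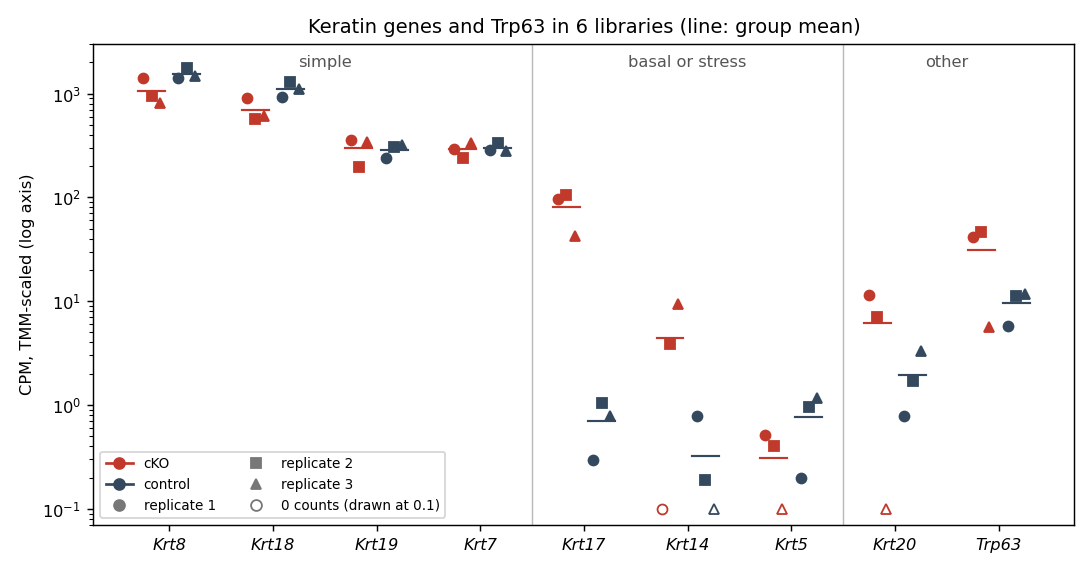
TMM-scaled CPM of the 9 genes on a log axis, cKO left of control for each gene, with a symbol for each replicate, a line at the group mean and open symbols for libraries with 0 counts. The red symbols of Krt17 lie between 42.0 and 106 CPM and the dark ones at 1.05 CPM or below, whereas those of Krt7 and Krt19 overlap.

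Krt8 (Entrez Gene 16691, chromosome 15) and Krt18 (Entrez Gene 16668, chromosome 15) encode the partner pair of simple epithelia, and they are next to each other on the chromosome. Krt8 had 1423, 941 and 808 CPM in cKO replicates 1, 2 and 3, against 1406, 1771 and 1475 CPM in control replicates 1, 2 and 3. The groups overlapped, because cKO replicate 1 lay within the controls while the other cKO libraries lay below them. The log2 fold change of Krt8 was -0.55 (SE 0.218), and -0.40 (SE 0.164) without cKO replicate 3. Krt18 had 909, 568 and 607 CPM in cKO libraries, against 933, 1304 and 1110.2 CPM in controls. All cKO libraries lay below all controls, by a narrow margin between cKO replicate 1 and control replicate 1. The log2 fold change of Krt18 was -0.68 (SE 0.210), and -0.61 (SE 0.209) without cKO replicate 3. Across all 13047 tested genes, 20.7% had every cKO library below every control. In both genes cKO replicate 1 was the cKO library with the highest value and control replicate 2 the control library with the highest value.

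The RefSeq promoters of this adjacent pair (GRCm38.p6, 250 bases before to 50 after the annotated start, 5′ to 3′ on the gene's strand) are shown because the genes sit side by side and yet differ in CpG content. Capitals mark TATAAA on either strand.
Krt8, chr15:102004293-102004592, minus strand: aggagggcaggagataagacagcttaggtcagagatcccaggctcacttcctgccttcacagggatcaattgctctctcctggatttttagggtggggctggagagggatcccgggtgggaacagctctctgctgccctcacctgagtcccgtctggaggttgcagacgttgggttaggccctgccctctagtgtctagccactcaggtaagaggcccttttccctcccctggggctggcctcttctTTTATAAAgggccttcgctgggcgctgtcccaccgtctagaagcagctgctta
Krt18, chr15:102027966-102028265, plus strand: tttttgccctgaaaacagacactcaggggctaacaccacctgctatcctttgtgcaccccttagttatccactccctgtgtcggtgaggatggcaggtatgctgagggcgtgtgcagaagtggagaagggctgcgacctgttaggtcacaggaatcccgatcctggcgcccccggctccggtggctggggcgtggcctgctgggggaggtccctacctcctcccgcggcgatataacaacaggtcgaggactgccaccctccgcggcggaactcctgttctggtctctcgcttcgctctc
ASH2L belongs to the core of the histone H3 lysine 4 methyltransferases, whose mark is most prominent at CpG-rich promoters. The Krt8 window holds 6 CpG dinucleotides, an observed-to-expected ratio of 0.238, and the Krt18 window holds 17, a ratio of 0.603. Over 32534 RefSeq promoters the median ratio was 0.387, which puts Krt8 at the 33.8 percentile and Krt18 at the 64.2 percentile. Of the 6 members with a promoter in the table, Krt7 had the highest ratio (0.641) and Krt5, Krt14 and Krt20 had 0.251, 0.286 and 0.320. Krt17, Krt19 and Trp63 have no entry. TATAAA was found on either strand in 2 of the 6 windows, those of Krt8 and Krt20, and in 13.6% of all promoters. The AP-1 motif TGANTCA was in none of the 6, and in 7.79% of all promoters.

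Read sharing differs between the pair. Of the 50-base windows of the annotated Krt8 coding sequence (1473 bases, GENCODE M21), 36.1% occur unchanged in the transcript of Krt8-ps, a pseudogene, against 0.818% of Krt18 windows found in transcripts of other genes. The treatment of reads that fit several places is not given, so the level of Krt8 relative to the others is less certain than that of Krt18. The annotation also places the antisense gene Gm671 over exons of Krt7 and the lincRNA Gm36026 over exons of Krt8, on the opposite strand in both. Whether counting used strand is unknown here, so their reads may not have been kept apart.

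Krt7 (Entrez Gene 110310, chromosome 15) encodes a type II keratin of ducts and urothelium. It had 295, 240.3 and 334 CPM in cKO libraries, against 288, 331 and 281 CPM in controls, and the groups overlapped fully. The log2 fold change was -0.05 (SE 0.142), and it was negative in 14 and positive in 2 of 16 settings, from -0.19 to 0.07. Krt19 (Entrez Gene 16669, chromosome 11), a small type I keratin of ducts, had 355, 198 and 341 CPM in cKO libraries, against 237, 307 and 321 CPM in controls. Its cKO values lay on both sides of the controls, and its log2 fold change of 0.05 (SE 0.239) was positive in 12 and negative in 4 of 16 settings. None of the 50-base windows of the Krt7 or Krt19 coding sequence occurs in a transcript of another gene.

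Levels can be compared between genes only per length, as FPKM. In cKO cells Krt8 averaged 591 ± 170.1 FPKM and Krt18 averaged 501 ± 125 FPKM (SD, n = 3), with overlapping ranges, and they ranked between 32 and 112 among all genes of a cKO library. In controls Krt8 averaged 846 ± 115 FPKM and Krt18 averaged 785 ± 137 FPKM (SD, n = 3), again overlapping, with ranks between 21 and 43. Krt19 and Krt7 followed at 213 ± 60.2 and 185 ± 30.0 FPKM in cKO, and at 200.4 ± 31.0 and 186 ± 19.1 FPKM in controls (SD, n = 3), and these neighbours overlapped in both groups. Krt17 stood alone in cKO at 66.2 ± 27.9 FPKM, below every Krt7 value and above every Trp63 value. In cKO the order then ran Trp63 (5.14 ± 3.66), Krt20 (3.19 ± 2.97), Krt14 (2.62 ± 2.80) and Krt5 (0.140 ± 0.123 FPKM), and in controls it ran Trp63 (1.53 ± 0.524), Krt20 (0.978 ± 0.638), Krt17 (0.562 ± 0.307), Krt5 (0.345 ± 0.227) and Krt14 (0.186 ± 0.234 FPKM), and each of these overlapped its neighbour.

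Ratios between keratins were compared within each library, first between the partners Krt8 (type II) and Krt18 (type I), then between keratins of the same type. The ratio of Krt8 to Krt18 FPKM was 1.21, 1.29 and 1.03 in cKO libraries, against 1.17, 1.05 and 1.03 in controls, and these ranges overlapped. The ratio of Krt7 to Krt8 was 0.236 to 0.470 in cKO and 0.213 to 0.233 in controls. The ratio of Krt19 to Krt18 was 0.345 to 0.555 in cKO and 0.232 to 0.286 in controls. Neither of the last ratios overlapped between the groups, although Krt7 and Krt19 themselves did. The gap for Krt7 to Krt8 was narrow (0.236 in cKO replicate 1 and 0.233 in control replicate 1), and its highest value, 0.470, was that of cKO replicate 3. As a share of type II keratins Krt7 overlapped, at 18.7% to 31.3% in cKO and 17.4% to 18.8% in controls, and as a share of type I keratins Krt19 overlapped too, at 16.6% to 24.9% in cKO and 14.96% to 16.8% in controls. Summed over the 40 keratin genes of the lists, Krt7, Krt8, Krt18 and Krt19 made up 79.8% to 86.4% of keratin FPKM in cKO and 85.7% to 89.9% in controls. Krt17 was 3.57%, 5.58% and 2.06% of the pool in cKO libraries, against 0.0114%, 0.0324% and 0.0268% in controls. As a share of type I keratins alone, Krt17 was 3.50% to 10.1% in cKO and 0.0212% to 0.0600% in controls, and Krt18 was 44.9% to 55.2% in cKO and 58.7% to 66.4% in controls. The ratio of the type II sum to the type I sum overlapped, at 0.696 to 0.845 in cKO and 0.740 to 0.861 in controls.

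**Figure D2:**
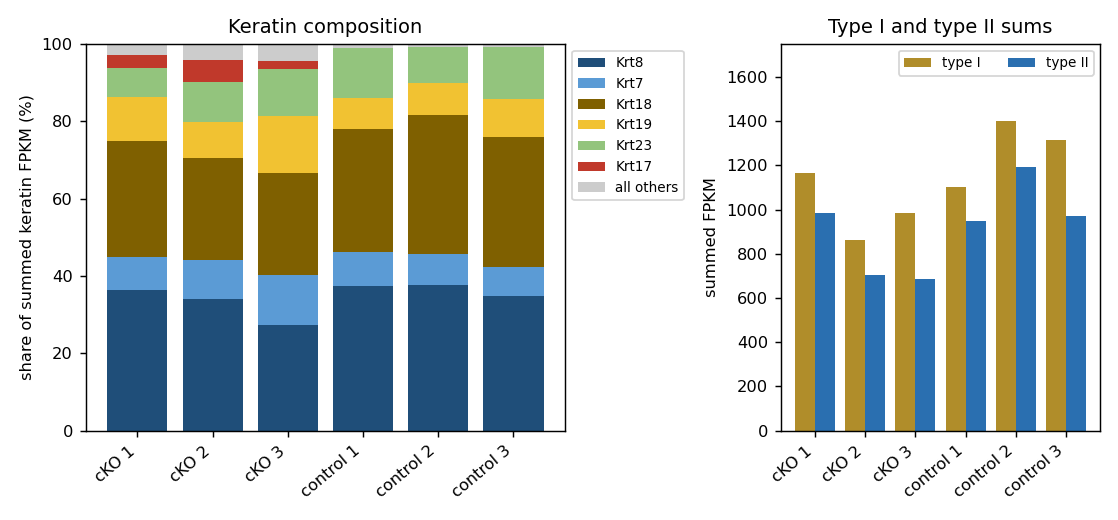
Left, percent of summed keratin FPKM taken by Krt8, Krt7, Krt18, Krt19, Krt23, Krt17 and all other keratins in each library; right, summed FPKM of type I and type II keratins in each library, cKO libraries left of controls in both panels. Krt17 makes a visible band of 2.06% to 5.58% in cKO libraries, and the type I sum exceeds the type II sum in each library.

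Krt17 (Entrez Gene 16667, chromosome 11) had 942, 1043 and 421 counts in cKO replicates 1, 2 and 3, against 3, 11 and 8 counts in control replicates 1, 2 and 3. In CPM these were 96.2, 106 and 42.0 in cKO and 0.295, 1.05 and 0.782 in controls. The groups were far apart, and cKO replicate 3 held less than the other cKO libraries. Every cKO library lay above every control in 16.7% of all tested genes. The mean was 115-fold higher in cKO, or 143-fold over cKO replicates 1 and 2. The fitted log2 fold change was 6.82 (SE 0.592), and between 6.45 and 7.20 with any 1 library left out. Krt17 was the member past the edgeR threshold among the 7 members tested, where 3.52% of all tested genes were called higher in cKO and 7.11% were called either way. Without cKO replicate 3, Krt17, Trp63 and Krt20 were past it, where 13.7% of genes were called higher and 28.5% either way. These counts restate the values that chose the genes and nothing is read from them.

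Krt17 has close paralogs next to it, so the sharing of reads was examined. In the coding sequence, Krt17 matched Krt14 at 84.1%, Krt42 at 79.8% and Krt16 at 78.2% of aligned bases, against 65.3% for Krt18 and 75.1% for Krt19. The most similar 90 bases of Krt14 and Krt17 (coding bases 646 to 735 and 535 to 624) are shown to make plain how alike they can be; capitals mark the single base that differs.
Krt14: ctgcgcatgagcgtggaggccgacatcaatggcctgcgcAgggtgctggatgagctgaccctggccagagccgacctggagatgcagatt
Krt17: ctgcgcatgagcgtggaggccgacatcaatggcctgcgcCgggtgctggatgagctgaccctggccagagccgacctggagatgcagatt
Such stretches are short. Of the 50-base windows of the Krt17 coding sequence, 4.79% occur in a transcript of another gene, most of them in Krt14 (4.39%). Krt16 had at most 2 counts and Krt42 at most 2 counts in any library, and Krt14 had 0, 38 and 94 counts in cKO libraries against 8, 2 and 0 counts in controls. In cKO replicate 1, 942 counts of Krt17 therefore stood beside 0 of Krt14.

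Krt5 (Entrez Gene 110308, chromosome 15) and Krt14 (Entrez Gene 16664, chromosome 11), the keratins by which basal cells are recognised, did not pass the filter on low counts and were not fitted. Krt5 had 5, 4 and 0 counts in cKO libraries, against 2, 10 and 12 counts in controls. Krt14 was listed at 0 in cKO replicate 1 and in control replicate 3. With a floor of 3 counts, which is 0.285 to 0.307 CPM in a library and covers counting error only, most Krt5 values lay near the limit of what could be detected. The usual type II partners of KRT17 in wounded epithelium, Krt6a and Krt6b, had 11, 6 and 0 and 0, 1 and 0 counts in cKO libraries, against 0 in every control. In cKO replicate 3, which held 421 counts of Krt17, the type II keratins Krt5, Krt6a and Krt6b were all listed at 0, while Krt7 and Krt8 had 3346 and 8095 counts. Few low values were listed in that library: 576 genes had 1 to 10 counts, against 1718 to 2474 in the other libraries. Its zeros for low genes are therefore not read as absence. The Krt5 promoter window is shown because it was the only 1 of the 6 available to hold a p53 family half-site, the motif bound by p63, which was searched on both strands and marked in capitals; 8.37% of all promoters hold it.
Krt5, chr15:101712856-101713155, minus strand: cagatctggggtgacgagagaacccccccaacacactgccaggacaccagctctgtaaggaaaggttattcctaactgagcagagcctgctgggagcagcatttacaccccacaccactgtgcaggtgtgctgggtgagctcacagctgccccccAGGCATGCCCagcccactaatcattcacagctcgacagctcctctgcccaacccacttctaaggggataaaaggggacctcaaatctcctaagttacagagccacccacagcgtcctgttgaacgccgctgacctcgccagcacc
This match is a description of the sequence and says nothing of binding.

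Trp63 (Entrez Gene 22061, chromosome 16) had 408, 455 and 57 counts in cKO libraries, against 59, 118 and 119 counts in controls. Its levels were 41.7, 46.2 and 5.69 CPM in cKO and 5.79, 11.2 and 11.6 CPM in controls. cKO replicates 1 and 2 lay above all controls, and cKO replicate 3 lay just below the lowest control. The log2 fold change was 1.71 (SE 0.751) with 6 libraries and 2.19 (SE 0.274) without cKO replicate 3, and it was positive in all 16 settings. Gene counts do not separate the p63 isoforms with and without the transactivating domain. Krt20 (Entrez Gene 66809, chromosome 11), a type I keratin of umbrella cells of the urothelium, had 113, 69 and 0 counts in cKO libraries, against 8, 18 and 34 counts in controls. It too was higher than every control in cKO replicates 1 and 2, and it was listed at 0 in cKO replicate 3. Its log2 fold change was 1.67 (SE 1.59) with 6 libraries and 2.24 (SE 0.557) without cKO replicate 3. Of all tested genes, 27.8% had cKO replicates 1 and 2 above every control, whatever their value in cKO replicate 3, so that part of the pattern was common. This share includes the 16.7% of genes with all cKO libraries above every control.

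**Figure D3:**
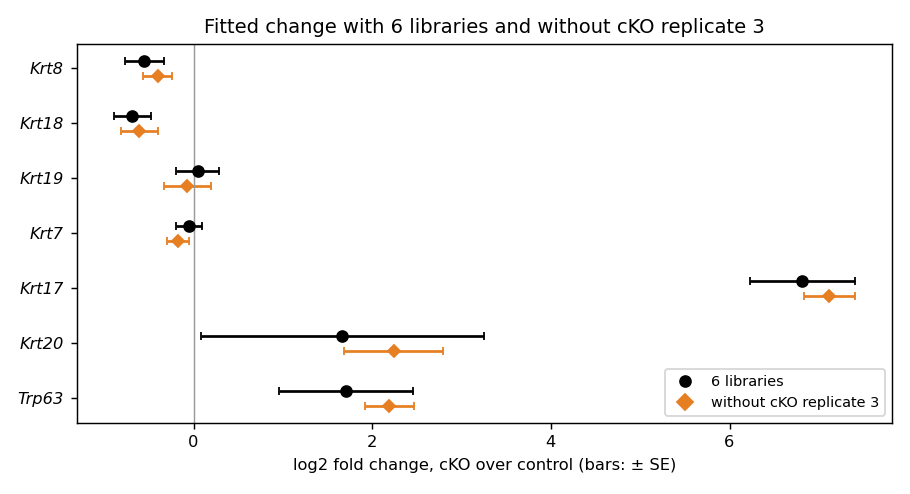
Fitted log2 fold change of cKO over control with its SE for the 7 members that passed the filter, from all 6 libraries (black) and without cKO replicate 3 (orange). Krt17 lies at 6.82 and 7.12, the simple keratins lie between -0.68 and 0.05 with 6 libraries, and the error of Krt20 is 0.557 without that library, against 1.59 with it.

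The keratin genes of mice sit in a type I cluster on chromosome 11 and a type II cluster on chromosome 15 that ends with the type I gene Krt18. In the chromosome 15 cluster Krt7 lay near the start and Krt8 and Krt18 at the end, with genes of low level between them. In the chromosome 11 cluster the abundant Krt23 and Krt19 lay apart, with genes of lower level between them. On chromosome 11 Krt17 lies between Krt16 and Krt42, which were close to 0 in all libraries. Krt20 lies between Krt12 and Krt23, which changed in opposite directions. Krt12, a type I keratin of the cornea, rose with 13.8, 26.8 and 55.2 CPM in cKO libraries, against 1.77, 1.05 and 0.978 CPM in controls (log2 fold change 4.65, SE 0.657, edgeR adjusted p = 0.0126). Krt23, an abundant type I keratin here, fell with 245, 248 and 308 CPM in cKO libraries, against 419.6, 377 and 491 CPM in controls (-0.69, SE 0.141, adjusted p = 0.0387). Krt12 was highest in the cKO library where Krt17 was lowest. Krt12 kept its call without cKO replicate 1 or cKO replicate 3, and its adjusted p was highest without control replicate 2 (0.0783), while Krt23 kept its call only without cKO replicate 3 (highest adjusted p 0.151, without control replicate 3).

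Of the 18 other type I keratins in the tables, 7 were tested, 1 rose (Krt12), 1 fell (Krt23) and 5 were not called. No median is read for them, since genes such as Krt40 passed the filter through the cKO libraries alone. Without cKO replicate 3, 3 of 7 rose, Krt40 among them, and 1 fell. Because of how Krt40 passed the filter, its call is not read as a result. Over all tested genes, 3.52% rose and 3.59% fell in the 6 libraries, and 13.7% rose and 14.9% fell without cKO replicate 3. Krt39, the second gene after Krt20, had 284, 425 and 17 counts in cKO libraries, against 37, 27 and 38 counts in controls (2.89, SE 1.03, adjusted p = 0.152). Krt40, next to Krt39, had 17, 24 and 52 counts in cKO libraries and 0 in every control, at least 32.3-fold higher if the 3 controls together held 3 counts, the floor (adjusted p = 0.0634). Krt10, a keratin of the suprabasal epidermis, had 236, 218 and 313 counts in cKO libraries, against 186, 155 and 184 counts in controls (0.60, SE 0.274, adjusted p = 0.250). Krt15, a keratin of basal and progenitor cells, had 46, 29 and 130 counts in cKO libraries, against 38, 6 and 0 counts in controls (2.25, SE 1.53, adjusted p = 0.450). Krt36, a hair keratin, had 27, 19 and 0 counts in cKO libraries, against 17, 21 and 9 counts in controls (0.04, SE 1.44, adjusted p = 0.990). Every one of these except Krt36 and Krt39 was highest in cKO replicate 3, the library in which Krt20 was at 0.

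Of the 14 other type II keratins, 3 were tested and none was called by edgeR in the 6 libraries, with 1 at an unadjusted p under 0.05, 2 called higher by DESeq2 (Krt76 and Krt90) and 1 by limma-voom with library weights (Krt80). The genes DESeq2 called were not among the 3 that edgeR tested. Krt76 had 8, 0 and 128 counts in cKO libraries, against 0 in every control. Krt90 had 2, 16 and 120 counts in cKO libraries, against 0, 3 and 3 counts in controls. Most counts of both genes came from cKO replicate 3, the library that stood apart, and their groups overlapped. Krt75 and Krt80 rose among 5 tested without cKO replicate 3, where 13.7% of all tested genes rose. Krt75 had 18, 12 and 0 counts in cKO libraries, against 0, 1 and 0 counts in controls. It passed the filter there through the cKO libraries alone, so its call is not read as a result. Krt80, next to Krt7, had 425, 256 and 117 counts in cKO libraries, against 87, 147 and 74 counts in controls (1.44, SE 0.544, adjusted p = 0.175; 1.79 and 0.000789 without cKO replicate 3). Krt4, a keratin of stratified mucosa, had 18, 8 and 0 counts in cKO libraries, against 22, 23 and 20 counts in controls. Krt78 had 45, 16 and 0 counts in cKO libraries, against 8, 36 and 14 counts in controls. Neither Krt4 nor Krt78 was called (adjusted p = 0.671 and 0.969).

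**Figure D4:**
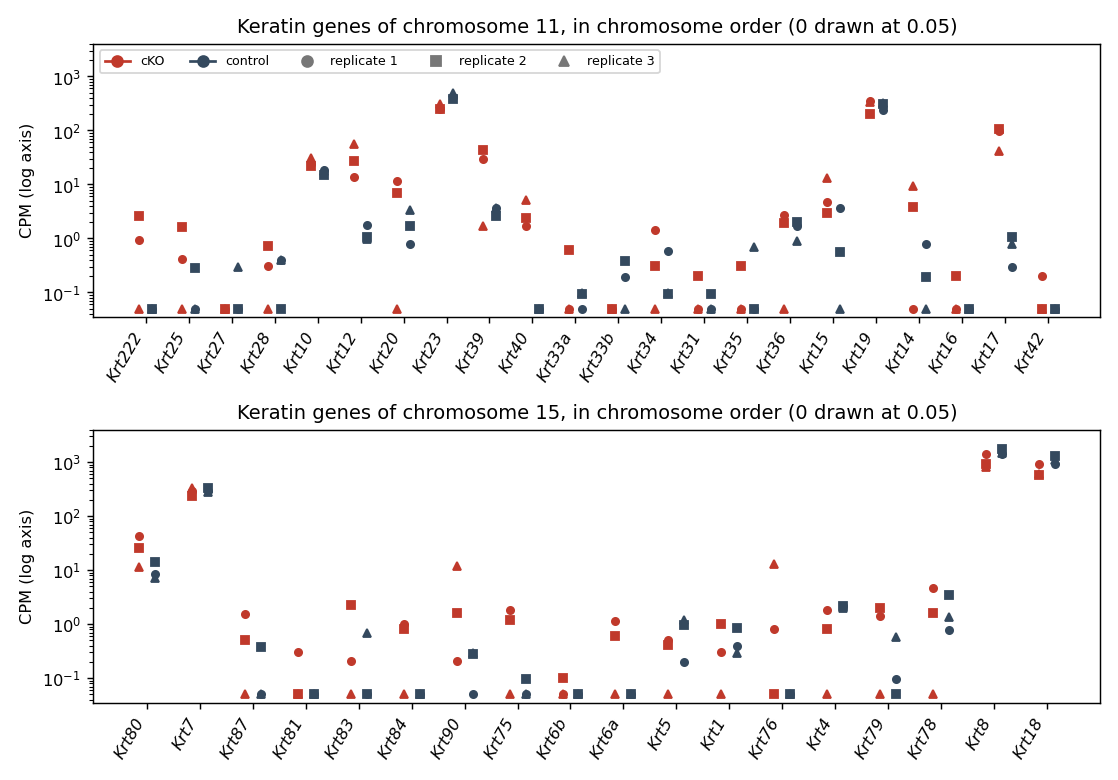
TMM-scaled CPM on a log axis of the keratin genes of chromosome 11 (top) and chromosome 15 (bottom) in the order in which they lie, cKO (red) left of control (dark), with a symbol for each replicate and 0 counts drawn at 0.05. Krt17 stands above its neighbours in cKO libraries alone, whereas Krt7, Krt8, Krt18, Krt19 and Krt23 are high in both genotypes.

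The gene next to Trp63 on chromosome 16, Tprg, whose name refers to regulation by p63, was looked at after its values were seen. It had 85, 127 and 0 counts in cKO libraries, against 1, 2 and 1 counts in controls, and did not pass the filter. Like Trp63 and Krt20 it was high in cKO replicates 1 and 2 alone. The neighbour on the other side, P3h2, had 174, 194 and 193 counts in cKO libraries, against 280, 417 and 473 counts in controls.

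Genes reported as targets of p63 in epidermis and other epithelia moved in both directions. Of 24 listed genes 22 were tested, 5 rose, 3 fell and 14 were not called, with a median log2 fold change of 0.28, beside 3.52% rising, 3.59% falling and a median of -0.04 over all tested genes. Without cKO replicate 3, 7 of 23 rose and 3 fell, beside 13.7% and 14.9% of all tested genes. The 7 include Col17a1, which passed that filter through the cKO libraries alone. Cdkn1a, which encodes the cell cycle inhibitor p21 and is a target of p53 that p63 can repress, had 305, 334 and 362 CPM in cKO libraries, against 78.4, 91.7 and 84.5 CPM in controls (1.98, SE 0.114, edgeR adjusted p = 0.00311). Its groups were far apart and its call was kept without each library in turn. Perp, a desmosomal protein under p53 and p63 control, had 72.6, 106 and 106 CPM in cKO libraries, against 41.8, 39.8 and 32.5 CPM in controls (1.31, SE 0.204, adjusted p = 0.0168). Pdpn, which encodes podoplanin (1.46, SE 0.309), Itga3, an integrin subunit (0.57, SE 0.0972), and Chuk, a kinase of epidermal differentiation (0.69, SE 0.145), rose as well. Bmp7, a growth factor of the ureteric bud, had 145, 154 and 174 CPM in cKO libraries, against 264, 270.5 and 332 CPM in controls (-0.87, SE 0.130, adjusted p = 0.0146). Fermt1, the integrin activator kindlin-1 (-2.78, SE 0.502), and Ripk4, a kinase of keratinocyte differentiation (-0.55, SE 0.117), fell. Perp kept its call only without cKO replicate 1 or cKO replicate 3 (highest adjusted p 0.0891, without control replicate 3). Pdpn, Itga3, Chuk, Bmp7, Fermt1 and Ripk4 kept theirs only without cKO replicate 3, with highest adjusted p of 0.167, 0.102, 0.183, 0.0698, 0.124 and 0.171. Among 8 tested genes of the p53 family and partners of p63, Mdm2, a p53 target and inhibitor, rose (0.62, SE 0.117, adjusted p = 0.0296; 0.151 without control replicate 3, and called only without cKO replicate 3). The count was also 1 higher and none lower without cKO replicate 3. The partner with the next smallest p, Ppp1r13b, was at -0.48 (SE 0.264, adjusted p = 0.342).

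**Figure D5:**
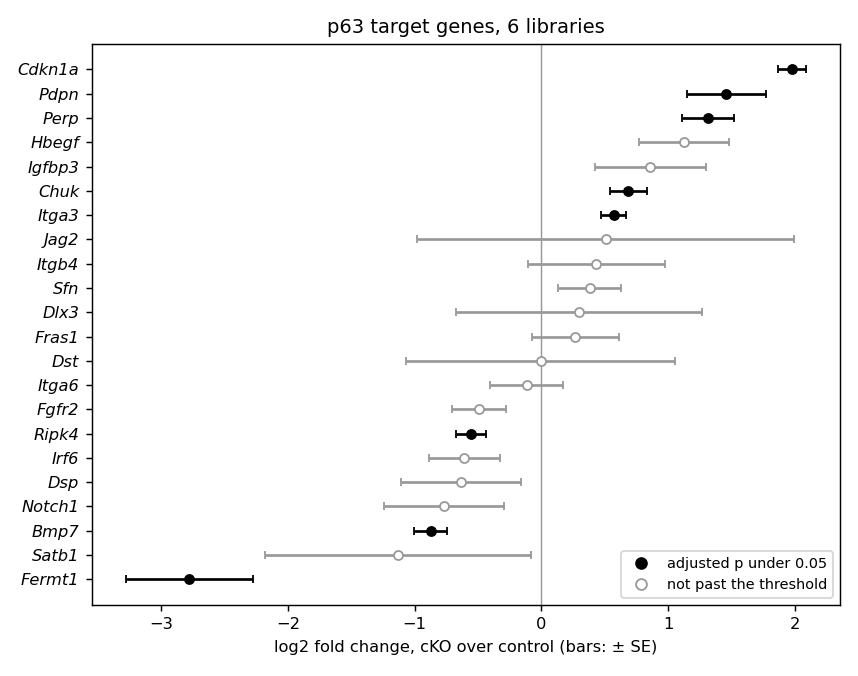
Log2 fold change of cKO over control with its SE for the 22 tested p63 target genes, ordered by size, with black points for genes past an edgeR adjusted p of 0.05. Of these, 5 lie to the right of 0, led by Cdkn1a at 1.98, and 3 to the left, with Fermt1 at -2.78.

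The structures that anchor keratin filaments were examined next. Of 11 tested genes of desmosomes and keratin linkers, Perp rose and no other was called (median -0.17), beside 7.11% of all tested genes called either way, and Dsc2, a desmosomal cadherin, had 44.7, 35.3 and 49.3 CPM in cKO libraries, against 74.7, 76.7 and 68.3 CPM in controls (-0.77, SE 0.176, adjusted p = 0.0502). Without cKO replicate 3, Dsc2, Dsg2 and Jup fell and Perp rose, beside 28.5% of all tested genes called either way. Of 8 tested genes of hemidesmosomes and their laminin, none was called by edgeR, with 1 at an unadjusted p under 0.05 and 2 called higher by limma-voom with library weights. Plec, which encodes the linker plectin, had a log2 fold change of 0.93 (SE 0.381, adjusted p = 0.209). Col17a1, a hemidesmosomal collagen of basal keratinocytes, had 24, 33 and 8 counts in cKO libraries and 0 in every control, at least 22.6-fold higher with the floor over the control group. It did not pass the edgeR filter and was the 1 gene of this list that DESeq2 called. Col17a1 was among the 3 of 9 tested that rose without cKO replicate 3, and none fell. It passed that filter through the cKO libraries alone, so its call is not read as a result.

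Among other intermediate filament genes, 8 were tested and Lmna, which encodes the nuclear lamins A and C, rose with 204, 179 and 235 CPM in cKO libraries, against 114, 137 and 125 CPM in controls (0.72, SE 0.137, adjusted p = 0.0305). Lmnb1, the lamin B1 gene, had 21.5, 20.4 and 29.1 CPM in cKO libraries, against 41.8, 32.0 and 41.6 CPM in controls (-0.70, SE 0.246, adjusted p = 0.148). Of 9 such genes tested without cKO replicate 3, 2 rose and Lmnb1 fell. Of 20 tested transcription factors of epithelia, 2 fell and none rose: Gata3, a factor of the duct lineage and the epidermis (-0.76, SE 0.148, adjusted p = 0.0325), and Ehf, an ETS factor (-0.79, SE 0.159, adjusted p = 0.0357). Grhl3 and Ovol2 rose and 4 fell when cKO replicate 3 was left out. Over all tested genes, 3.52% rose and 3.59% fell with that library, and 13.7% rose and 14.9% fell without it. In the 6 libraries 3 factors were higher and 4 lower at an unadjusted p under 0.05, and DESeq2 called 2 higher and 2 lower. Krt17 is often described in wounded and stressed epithelium. Beside 3.52% of all tested genes rising and 3.59% falling, 2 of 22 tested genes of that setting rose, none fell and 20 were not called (median 0.39). The 2 that rose were Clu and Sox4. Clu, the secreted chaperone clusterin, had 830, 975 and 1227 CPM in cKO libraries, against 309, 424 and 347 CPM in controls (1.49, SE 0.182, edgeR adjusted p = 0.00850). Sox4 was at 0.85 (SE 0.184, adjusted p = 0.0434). When cKO replicate 3 was left out, 6 of 23 rose and 2 fell, beside 13.7% and 14.9% of all tested genes. In the 6 libraries 6 stress genes were higher and 2 lower at an unadjusted p under 0.05, and DESeq2 called 5 higher and 1 lower. The call of Clu was lost without control replicate 1 or control replicate 3 (highest 0.0621). Gata3 lost its call without any control or without cKO replicate 2 (highest 0.131), and those of Lmna, Ehf and Sox4 were kept only without cKO replicate 3 (highest 0.146, 0.143 and 0.142).

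Markers of other cell types are given beside Krt17, and their part in its level was not tested. Their calls stand beside 3.52% of all tested genes rising and 3.59% falling, or 13.7% and 14.9% without cKO replicate 3. Markers of stroma and smooth muscle, 14 in the tables, summed to 110.2 to 216 CPM in cKO and 19.4 to 32.0 CPM in controls. Of 9 tested, 3 rose, with cKO replicate 3 and without it: the contractile genes Cnn1 (6.69, SE 0.661, adjusted p = 0.00572, kept without each library in turn), Tagln (highest adjusted p 0.0644, without control replicate 1) and Acta2 (highest 0.0827, without control replicate 1, and called only without cKO replicate 3). Cnn1 had 749, 412 and 258 counts in cKO libraries, against 2, 5 and 7 counts in controls. It passed the filter through the cKO libraries alone, so its call is not read as a result. The 3 contractile genes summed to 94.2 to 202 CPM in cKO and 4.20 to 9.90 CPM in controls. The 11 other markers of the list summed to 13.6 to 25.8 CPM in cKO and 11.04 to 27.8 CPM in controls, which overlapped. This division coincides with the calls, so neither the gap nor the overlap is read as a result. Foxd1, the defining stromal factor, had 0 counts in every cKO library, against 0, 0 and 5 counts in controls. Markers of nephron epithelium and podocytes, 15 in the tables, summed to 248 to 339 CPM in cKO and 103 to 145 CPM in controls. Of 7 tested, 2 rose, among them the Notch ligand gene Jag1 (1.19, SE 0.270, adjusted p = 0.0496; 0.192 without control replicate 2, called only without cKO replicate 3). Without that library 5 of 9 rose. Nphs1, a defining podocyte gene, had 2, 0 and 0 counts in cKO libraries and 0 in every control. Squamous differentiation markers, 12 in the tables, summed to 39.1 to 49.0 CPM in cKO and 24.3 to 27.1 CPM in controls. None of the 5 tested was called by edgeR, by DESeq2 or by limma-voom with library weights, with 1 at an unadjusted p under 0.05, and Ivl rose among 6 tested without cKO replicate 3. The squamous gene with the smallest p, Lor, encodes the cornified envelope protein loricrin and had a log2 fold change of 2.21 (SE 0.916, adjusted p = 0.210). Flg, Cdsn, Cnfn, Klk5 and Dsg3 were near 0 in both genotypes, with at most 9 counts in any cKO library and 0 in every control.

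Urothelial markers, the genes that Krt20, Krt7 and Trp63 accompany in the bladder and ureter, had lower sums in cKO. All 9 were in the tables and summed to 114 to 204 CPM in cKO and 420.1 to 469 CPM in controls. Of these, 2 fell and none rose in the 6 libraries, whereas 5 fell and Upk3b and Grhl3 rose without cKO replicate 3. Over all tested genes, 3.59% fell and 3.52% rose in the 6 libraries, and 14.9% fell and 13.7% rose without cKO replicate 3. The uroplakin gene Upk3a had 55.5, 24.1 and 34.3 CPM in cKO libraries, against 196, 236 and 274 CPM in controls (-2.63, SE 0.318, adjusted p = 0.00846; 0.0529 without control replicate 3). By edgeR 1 was higher and 3 lower at an unadjusted p under 0.05, and DESeq2 called 3 lower. Mesothelial markers, 7 in the tables, summed to 86.9 to 133 CPM in cKO and 119 to 155 CPM in controls. Of 6 tested, Gpm6a rose (2.77, SE 0.400, adjusted p = 0.0133; 0.0712 without control replicate 1, and lost also without control replicate 2 or cKO replicate 2) and Upk1b fell (adjusted p = 0.0172; 0.0774 without control replicate 1, and called only without cKO replicate 3). Upk3b rose as well without cKO replicate 3. Endothelial markers, 10 in the tables, summed to 13.2 to 29.5 CPM in cKO and 2.45 to 7.52 CPM in controls, with Flt1 at 11, 8 and 0 counts in cKO libraries and 0 in every control. The highest of these sums, 29.5 CPM, was that of cKO replicate 3, where 8 of the 10 markers were at 0. In cKO replicates 1 and 2, 1 and 2 markers were at 0, and in controls 7, 1 and 6. Blood and immune markers, 14 in the tables, summed to 67.9 to 116 CPM in cKO and 46.8 to 458 CPM in controls, the highest in control replicate 3. No endothelial or blood marker was called by edgeR, with none at an unadjusted p under 0.05, and DESeq2 called 1 endothelial marker and limma-voom 1 blood marker higher. Of 4 endothelial markers tested without cKO replicate 3, 1 rose. The smallest p were those of Kdr (-1.66, SE 1.51, adjusted p = 0.591) and Cd68 (2.03, SE 0.920, adjusted p = 0.250).

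For 4 members the genes with the most similar profiles were found among 11177 genes as the smallest root mean square difference between log2 CPM values centred on their mean over the 6 libraries. For Krt17 these were Cnn1, Actc1 and Nppb, with differences of 0.405, 0.586 and 0.592. Cnn1 had 76.5, 41.8 and 25.7 CPM in cKO libraries, against 0.196, 0.476 and 0.684 CPM in controls, so that in cKO it was highest in replicate 1 and Krt17 in replicate 2. For Trp63 they were Tff2, Pcdhb17 and Lsp1, with differences of 0.335, 0.342 and 0.376. All of these were low in cKO replicate 3, as Trp63 was, with Tff2 at 15.02, 12.3 and 2.39 CPM in cKO libraries, against 2.95, 3.14 and 3.62 CPM in controls. For Krt8 they were Rnf145, Glt28d2 and Plppr1 (0.0721, 0.0813 and 0.0855), and for Krt7 they were Cdyl, Hcfc1r1 and Ptpa (0.0465, 0.0519 and 0.0548). Krt18 was not among the closest 3 genes to Krt8.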

How the data were processed

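RNA-seq of 3 cKO and 3 control libraries was analysed from the deposited tables. The submitters' processing notes list GRCm39 as the build and HISAT2, HTSeq, Cufflinks and DESeq as tools, and give no version or role. The deposited counts are raw reads per gene, and the deposited FPKM values equal those counts over 1 length per gene and 1 factor per library (largest relative deviation 2.53e-07). Libraries held 9620235 to 10538314 counts. The mRNA kit preserved strand, per the labels' protocols.

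The main test was edgeR 4.0.16 in R 4.3.3: filterByExpr (13047 genes), TMM factors, robust quasi-likelihood F-test with group as the only term, Benjamini-Hochberg adjustment over all tested genes and a threshold of 0.05. SE is the size of the log2 fold change over the square root of F. CPM is TMM-scaled. Alternatives used DESeq2 1.42.0, limma 3.58.1, other filters and scalings, a replicate block and each library left out. Steps were tested on simulated data. Promoters are from RefSeq (GRCm38.p6; 6 of 9 members matched) and transcripts from GENCODE M21. The members and gene lists were chosen with earlier results of these data known. Genes named are the 9 members, Ash2l, every other tested keratin, the 2 genes of each list with the smallest p (1 for cell type markers) and the 3 nearest profiles of Krt7, Krt8, Krt17 and Trp63 (mean log2 CPM of at least 2). Some genes that this rule selects are not reported here. Other genes named were chosen after their values were seen.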

Additional observations from a re-analysis of the deposited data

How the results depend on the processing

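The 6 libraries gave 459 genes higher and 469 lower in cKO, and 16 genes of the lists of keratins, anchors, p63 targets, epithelial factors and stress genes were called. DESeq2 called 1111 higher and 1061 lower, with 29 on those lists, and limma-voom with library weights called 1607 and 1756, with 33. As log2(FPKM + 1), where the fold changes of low genes come out too small, 696 were higher and 709 lower, and without a filter 10 on the lists were called. With 1 library left out, higher calls ranged from 62 to 1865, lower calls from 59 to 2032 and calls on the lists from 1 to 38; the highest of each came without cKO replicate 3. RLE factors, no filter and the stricter filter kept all these counts within 1.5 times. Of 29 called list genes, markers included, Cdkn1a and Cnn1 were called without each library in turn and 27 lost the call without at least 1. Cnn1 passed the filter through the cKO libraries alone, so its call is not read as a result.

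The replicate block left 12 genes higher, 11 lower and 1 on the lists. Same-numbered libraries did not deviate together across genes (correlations of their deviations from the group means -0.022, 0.025 and -0.0015). That check cannot exclude a shared litter or day, and the labels do not say that the numbers mark one. The cause of these differences was not tested. The log2 fold change of Krt17 was positive in all 16 settings (5.34 to 7.20), and those of Krt8 (-0.83 to -0.40) and Krt18 (-0.93 to -0.56) were negative in all. Krt5 and Krt14 could be fitted in 3 and 7 settings only. Low counts limit what can be said of Krt5, which had at most 12 in any library. Krt14 had 0, 38 and 94 counts in cKO libraries, against 8, 2 and 0 in controls. Its spread between cKO libraries limits it as well.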
